A study of Mus musculus with 6 samples.

Results

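Mitochondrial ribosomal proteins are the nuclear-encoded protein components of the mitoribosome, and 44 of their genes, chosen by symbol from a list of members, were followed here among the 18193 genes measured in the series. All 44 were found under their current symbols, 27 of them encoding proteins of the large subunit and 17 proteins of the small subunit. Mrps18a and Mrps30 carry small-subunit names but were counted with the large subunit, where their proteins sit in structures of the mammalian mitoribosome. By symbol alone the division would be 25 and 19. The genes compared were measured on 6 Affymetrix arrays with white adipose tissue RNA of female C57Bl6 mice aged 6 months. Of the mice, 3 were homozygous for the Ksr2 knockout (KSR2-/-, below knockouts 1 to 3) and 3 were wild type (WT, below wild types 1 to 3). The design text gives 1 array per mouse, so each array was taken as 1 animal. The labels do not name the fat depot, the deleted part of Ksr2 or any treatment of the animals. They give no litter, so p-values measure the spread between these mice.

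The mitoribosome translates the few messenger RNAs encoded in mitochondrial DNA, which specify hydrophobic core subunits of the respiratory chain and of ATP synthase. Its protein components are all made in the cytosol and imported, so that their supply is set by nuclear genes. The large subunit forms peptide bonds and releases the new chain toward the inner membrane, and the small subunit decodes the messenger RNA. KSR2 is a scaffold of the Raf-MEK-ERK cascade, and mice that lack it become obese. White adipocytes hold fewer mitochondria than brown ones, but use them for the pyruvate and amino acid metabolism that feeds lipid synthesis.

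Promoter sequences were taken from RefSeq (GRCm38.p6) for members with the smallest p in each subunit. This is a choice by rank, since no member passed the comparison of genotypes below. Each line gives the 250 bases before the annotated transcription start, 5′ to 3′ on the gene's strand, at chr19:4962056-4962305 (Mrpl11, plus strand), chr9:105053018-105053267 (Mrpl3, plus strand), chr14:20393491-20393740 (Mrps16, minus strand) and chr4:126046678-126046927 (Mrps15, plus strand). Capitals mark the letters CCGGAAG or their reverse complement, the core bound by GABPA and other ETS factors. Mrpl15 and Mrps35, also among the members with the smallest p, are named only.
Mrpl11: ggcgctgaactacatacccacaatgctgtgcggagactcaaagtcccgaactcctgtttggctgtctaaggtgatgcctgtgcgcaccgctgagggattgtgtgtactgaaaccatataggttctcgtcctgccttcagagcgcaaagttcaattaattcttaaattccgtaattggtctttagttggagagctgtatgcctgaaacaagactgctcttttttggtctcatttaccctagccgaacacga
Mrpl3: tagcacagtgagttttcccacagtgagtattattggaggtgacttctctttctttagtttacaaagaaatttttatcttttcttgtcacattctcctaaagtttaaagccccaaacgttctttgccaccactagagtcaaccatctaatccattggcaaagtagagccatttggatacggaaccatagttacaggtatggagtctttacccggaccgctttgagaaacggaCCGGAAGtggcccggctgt
Mrps16: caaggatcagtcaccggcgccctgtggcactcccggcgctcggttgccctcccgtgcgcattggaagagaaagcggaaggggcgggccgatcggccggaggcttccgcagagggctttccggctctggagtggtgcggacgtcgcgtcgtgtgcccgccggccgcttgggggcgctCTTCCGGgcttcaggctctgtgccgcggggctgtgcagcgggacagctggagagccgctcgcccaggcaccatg
Mrps15: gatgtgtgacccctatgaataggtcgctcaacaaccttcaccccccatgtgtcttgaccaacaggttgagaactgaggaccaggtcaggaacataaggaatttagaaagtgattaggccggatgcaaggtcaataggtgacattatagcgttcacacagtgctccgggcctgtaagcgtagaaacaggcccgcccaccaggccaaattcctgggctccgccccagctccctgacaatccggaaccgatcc

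A window of 300 bases around the start, 250 before and 50 after, was found for 38 of the 44 members. Both strands were searched for 6 motifs, and no matches of different motifs overlapped in a member. The ETS core was held by 11 of 38 members (28.9%), against 11.9% of 17492 protein-coding promoters. It was held by larger shares of the other mitoribosomal protein genes (43.3% of 30) and of cytosolic ribosomal protein genes (48.7% of 39). AAGATGGC, a core of the YY1 motif, was held by 8 members (21.1%), against 16.7% of the other mitoribosomal, 7.69% of the cytosolic ribosomal and 3.22% of all promoters. The NRF1 core motif was held by 5 members (13.2%), against 23.3% of the other mitoribosomal, 10.3% of the cytosolic ribosomal and 6.6% of all promoters. GABPA and NRF1 are the factors classically tied to nuclear genes of mitochondrial proteins. At least 1 of these 2 cores was held by 15 of 38 members. This count was made for no other promoters, so it was not compared with a background. The capitals begin at position −74 from the start in Mrps16, which held another match at 25 after the start, and at position −19 in Mrpl3, while the lines of Mrpl11 and Mrps15 hold none. The CCAAT box was found in 16 members (42.1%, against 39%), the TATA letters TATAAA in 4 (10.5%, against 13.3%), and the extended ESRRA element TCAAGGTCA in 0 (0.332% of all promoters). Mean base composition was 57.6% G and C in members and 55.9% in all promoters. These matches describe letters in the windows and were not tested as binding sites.

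In KSR2-/- fat the mitoribosomal protein genes read slightly lower than in WT fat, by a median of −0.26 on the log2 scale, and no single gene passed the test. Lower means were measured in 42 of 44 members, against 55.6% of all genes. Of the 27 large-subunit members 25 were lower (median −0.26), and of the 17 small-subunit members all 17 were lower (median −0.28). The median difference of all 18193 genes was −0.035. Genes with a mean log2 intensity at or above the median of all gene means, 5.96, are the closer background, since all 44 members lie among them, and there 46.3% were lower with a median of 0.028. By limma with Benjamini-Hochberg adjustment over all genes, 0 members passed at an adjusted p under 0.05 and 1 gene in all did (0.0055%, Il13ra2, named after its value was seen), with adjusted p of the members between 0.302 and 0.964. At an unadjusted p under 0.05 there were 4 members lower, Mrps16, Mrps15, Mrpl11 and Mrpl15, and 0 higher. That is 9.09% of members, against 5.38% of all genes lower and 6.71% higher. Of the 9097 genes at or above the median mean, 600 were lower at that level (6.60%) and 883 higher.

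The mean differences were about the size of the SD between animals of 1 genotype. The mean log2 intensity of the large-subunit members was 8.39, 8.80 and 8.96 in knockouts 1 to 3, against 8.71, 9.22 and 9.05 in wild types 1 to 3. That is 8.72 ± 0.30 in KSR2-/- and 8.99 ± 0.26 in WT (SD, n = 3 each), a difference of −0.28. For the small-subunit members the values were 8.11, 8.64 and 8.84 in knockouts 1 to 3, against 8.54, 9.20 and 8.97 in wild types 1 to 3. The means were 8.53 ± 0.38 in KSR2-/- and 8.90 ± 0.33 in WT (SD, n = 3 each), a difference of −0.37. In both subunits knockout 1 was the lowest array and wild type 2 the highest, and wild type 1 lay below knockouts 2 and 3, so the genotypes overlap. Since the members were chosen with results of these data known, these means carry no p. In whole tissue, fewer cells of a type and less RNA per cell cannot be told apart.

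**Figure D1:**
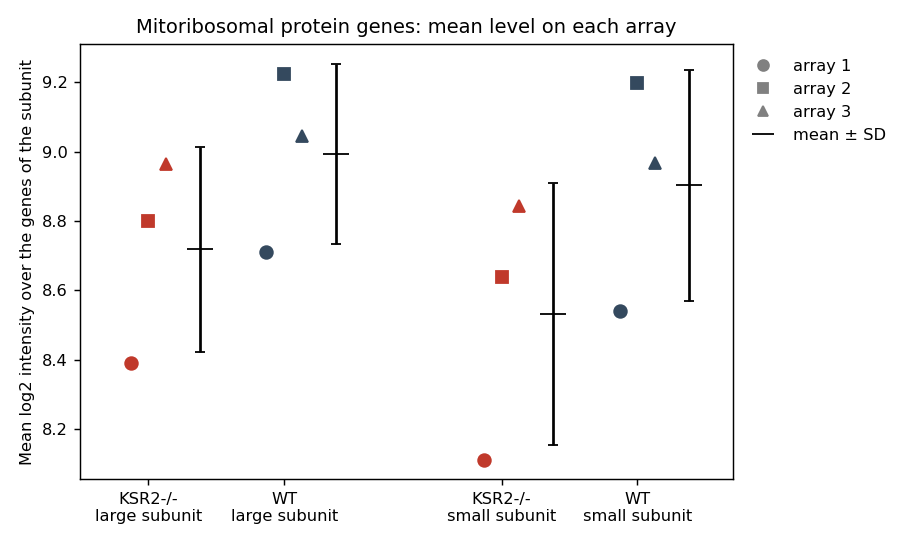
Mean log2 RMA intensity over the 27 large-subunit and the 17 small-subunit genes (vertical axis) on each array, KSR2-/- in red and WT in dark blue, with array numbers as symbols and mean ± SD beside each group. Knockout 1 sits lowest in both subunits (8.39 and 8.11), wild type 2 highest (9.22 and 9.20), and wild type 1 below knockouts 2 and 3.

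The pattern over arrays was shared by nearly the whole family. Knockout 1 was the lowest of the 6 arrays for 37 of 44 members, although it was lowest for 23.2% of all genes. Wild type 2 was the highest for 30 of 44, against 19.4% of all genes. Set against the WT mean of each gene, 44 members lay below it in knockout 1, 37 in knockout 2 and 21 in knockout 3, with median deviations of −0.64, −0.23 and 0.027. Wild type 1, set against the mean of the other wild types, lay below it in 40 of 44 members, with a median deviation of −0.52. Over all genes, knockouts 1 to 3 were below the WT mean in 58.1%, 53.3% and 49.9%, and wild type 1 below the others in 63.9%. In knockout 3 the share of members, 47.7%, was thus near that of all genes.

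**Figure D2:**
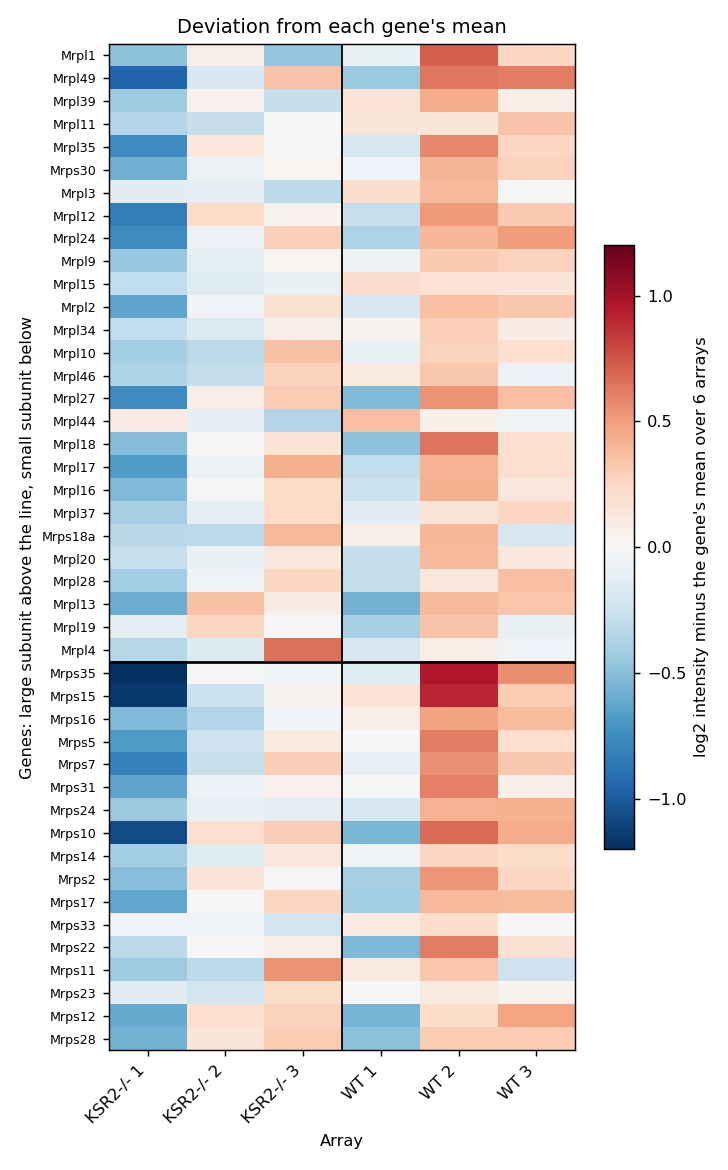
Deviation of each of the 44 genes (rows, large subunit above the black line and small subunit below, each ordered by the difference between genotypes) from its own mean over 6 arrays (columns, KSR2-/- left and WT right), in log2 intensity. Knockout 1 is the lowest array for 37 genes and wild type 2 the highest for 30. In knockout 3, 21 genes lie below the WT mean (47.7%, against 49.9% of all genes).

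The animals' numbers in the sample titles fall into a higher-numbered series (knockouts 1 and 2, wild types 1 and 2) and a lower-numbered pair (knockout 3, wild type 3). Within the higher-numbered series 43 of 44 members were lower in KSR2-/-, with a median of −0.41. Of all genes 53.5% were lower there, with a median of −0.028. In the lower-numbered pair, 1 mouse of each genotype, 34 of 44 were lower in KSR2-/- and the median was −0.13. Of all 18193 genes, 10776 were lower in that pair, with a median of −0.068. A test of the difference between the series, the interaction of genotype and series in limma, passed 0 members and 0 genes in all at an adjusted p under 0.05. At an unadjusted p under 0.05 it gave 2 of 44 members, Mrps11 and Mrps18a, and 1087 genes in all (5.97%). The members' share was thus not above that of all genes. For the interaction, the limma adjusted p was 0.562 for Mrps11 and 0.718 for Mrps18a. Mrps11, of the platform of the small subunit, differed by −0.59 within the higher-numbered series and by 0.79 in the lower-numbered pair. Mrps18a differed by −0.57 and 0.60 in the same order.

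Among large-subunit genes, the 4 without overlap of the genotypes were Mrpl11, Mrpl15, Mrpl3 and Mrpl39, and 3 of the small subunit joined them, Mrps15, Mrps16 and Mrps33. Such non-overlap with KSR2-/- lower was thus seen in 7 of 44 members (15.9%), against 8.56% of all genes. Of genes at or above the median mean it was seen in 7.21%. Non-overlap with KSR2-/- higher was seen in 0 members, against 7.72% of all genes. Mrpl11, part of the site where translation factors act on the ribosome, read 8.94, 9.00 and 9.30 in knockouts 1 to 3, against 9.44, 9.44 and 9.64 in wild types 1 to 3. Every knockout lay below every wild type, with a difference of −0.42 (SE 0.17, unadjusted p = 0.0382, limma adjusted p = 0.380). Mrpl15, an rRNA-binding protein within the large subunit, read 9.11, 9.26 and 9.31 in the knockouts, against 9.62, 9.57 and 9.56 in the wild types, which had an SD of 0.034, the lowest WT value of the 44 members. Its difference was −0.36 (SE 0.14, limma adjusted p = 0.398), on a probe set whose identifier marks probes that may bind other transcripts too. Of the 7 other Mrpl15 probe sets the next 3 in brightness also read lower in KSR2-/-, by −0.29 to −0.25, and the mean of all its probe sets, dim ones included, gave −0.11.

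Mrpl3, which lies close to the peptidyl transferase centre, read 8.79, 8.80 and 8.60 in knockouts 1 to 3, against 9.13, 9.31 and 8.91 in wild types 1 to 3 (difference −0.39, SE 0.17, limma adjusted p = 0.432). Its lowest array was knockout 3, not knockout 1. Mrpl39, a mitochondrion-specific protein related to threonyl-tRNA synthetase, read 10.20, 10.68 and 10.35 in the knockouts, against 10.79, 11.08 and 10.69 in the wild types (difference −0.44, SE 0.19, limma adjusted p = 0.432). Knockout 2 and wild type 3 nearly met. Mrpl1, whose bacterial counterpart forms the stalk beside the exit site for transfer RNA, had the largest difference of the large subunit, −0.59 (SE 0.26, limma adjusted p = 0.433). It read 6.77, 7.33 and 6.80 in the knockouts, against 7.18, 7.98 and 7.51 in the wild types, and knockout 2 lay above wild type 1. The difference was −0.38 without wild type 2 and −0.24 with the mean of its probe sets, the second of which gave −0.025 (SE 0.23). Mrpl49, a mitochondrion-specific protein, read 6.92, 7.69 and 8.22 in the knockouts, against 7.43, 8.51 and 8.49 in the wild types, a difference of −0.53 (SE 0.41) with wide overlap. It was −0.19 without knockout 1, −0.35 without wild type 2, −0.84 without knockout 3 and −0.89 without wild type 1.

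The members with a higher mean in KSR2-/- were Mrpl4 and Mrpl19, both of the large subunit. Mrpl4, which lines the tunnel through which the new chain leaves, read 7.93, 8.11 and 8.93 in knockouts 1 to 3, against 8.08, 8.36 and 8.23 in wild types 1 to 3. The difference was 0.098 (SE 0.28, limma adjusted p = 0.941), knockout 3 was its highest array, and without that array it was −0.21. Mrpl19, whose bacterial counterpart lies at the interface of the subunits, read 7.15, 7.52 and 7.25 in the knockouts, against 6.87, 7.60 and 7.17 in the wild types (difference 0.093, SE 0.23, limma adjusted p = 0.928). Wild type 1 was its lowest array. Mrpl10 and Mrpl12, which form the stalk that recruits translation factors, differed by −0.26 (SE 0.24) and −0.36 (SE 0.33). Mrpl16 and Mrpl27, near the peptidyl transferase centre, differed by −0.20 (SE 0.26) and −0.24 (SE 0.37), within the spread between animals. Mrps18a and Mrps30, the large-subunit proteins with small-subunit names, differed by −0.18 (SE 0.26) and −0.41 (SE 0.22).

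**Figure D3:**
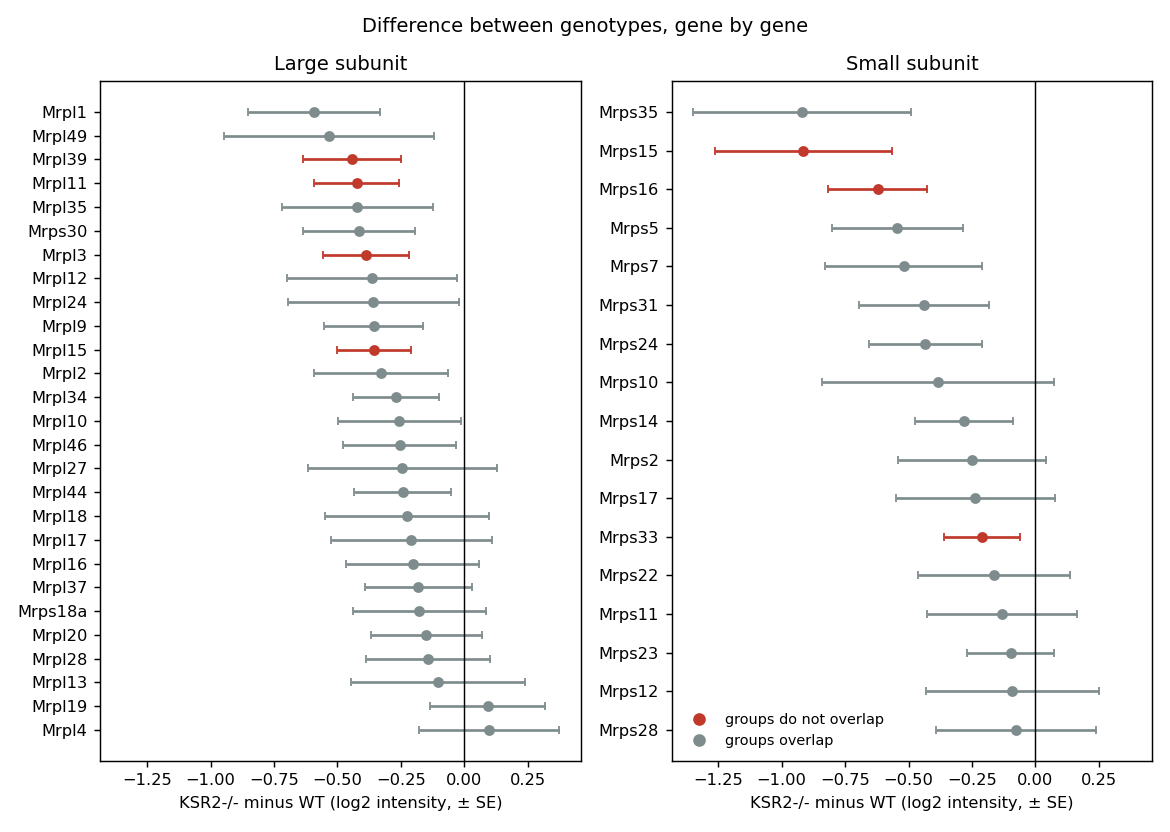
Difference between KSR2-/- and WT in log2 intensity (horizontal axis, point ± SE from limma, n = 3 arrays each) for each large-subunit and small-subunit gene, ordered by size, with red for genes whose 3 knockout values all lie below the 3 wild-type values. The differences run from −0.92 for Mrps35 to 0.098 for Mrpl4, and 7 genes are red.

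In the small subunit, Mrps15 and Mrps35 had the largest differences. Mrps15, whose bacterial counterpart binds ribosomal RNA early in assembly, read 8.09, 8.99 and 9.29 in knockouts 1 to 3, against 9.40, 10.16 and 9.55 in wild types 1 to 3. It was 1.88-fold lower in KSR2-/- (difference −0.91, SE 0.35, limma adjusted p = 0.373). Knockout 1 lay far below the others, and the difference was −0.57 without it. A second probe set of Mrps15, nearly as bright, gave −0.53 (SE 0.40), and the mean of its probe sets −0.40. Mrps35, a mitochondrion-specific protein, read 6.98, 8.31 and 8.26 in the knockouts, against 8.17, 9.28 and 8.87 in the wild types. Its difference of −0.92 (SE 0.43, limma adjusted p = 0.465) was −0.48 without knockout 1, and wild type 1 lay below knockouts 2 and 3.

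Mrps16, in which mutations cause combined respiratory chain deficiency in humans, had the smallest p of all members. It read 9.16, 9.34 and 9.65 in knockouts 1 to 3, against 9.77, 10.17 and 10.07 in wild types 1 to 3. The groups were apart, with a difference of −0.62 (SE 0.20, unadjusted p = 0.0154, limma adjusted p = 0.302), which stayed between −0.75 and −0.51 when any 1 array was left out. Mrps33, a mitochondrion-specific protein, also showed no overlap, at 9.95, 9.94 and 9.76 in the knockouts, against 10.09, 10.20 and 10.00 in the wild types. There the difference was −0.21 (SE 0.15, limma adjusted p = 0.661). Mrps5, at the entry of the messenger RNA channel in bacterial ribosomes, read 6.54, 6.97 and 7.33 in the knockouts, against 7.22, 7.83 and 7.42 in the wild types (difference −0.54, SE 0.26, limma adjusted p = 0.470). Knockout 3 lay above wild type 1, and the difference was −0.34 without knockout 1 and −0.20 with the mean of its probe sets.

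The smallest differences of the small subunit were those of Mrps12 and Mrps28. Mrps12, a protein of the decoding centre, read 8.18, 8.97 and 9.07 in knockouts 1 to 3, against 8.23, 9.00 and 9.26 in wild types 1 to 3 (difference −0.091, SE 0.34). Mrps28 read 8.70, 9.42 and 9.58 in the knockouts, against 8.78, 9.57 and 9.58 in the wild types (difference −0.075, SE 0.31). In both genes array 1 was the low one in each genotype, and the standard errors are several times the differences. Mrps7, Mrps10 and Mrps14, which build the head of the small subunit, differed by −0.52 (SE 0.31), −0.38 (SE 0.46) and −0.28 (SE 0.19). Mrps22, another gene of human mitochondrial disease, differed by −0.16 (SE 0.30). The 29 members outside the rule for values by array all had a lower mean in KSR2-/-, by −0.52 to −0.098, with adjusted p from 0.507 to 0.953.

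Genes listed as having a bacterial counterpart and those listed as mitochondrion-specific, Mrps18a and Mrps30 among the latter, are given side by side. Of the 32 with a counterpart 30 were lower in KSR2-/- (median −0.27), and of the 12 mitochondrion-specific ones all 12 were (median −0.25). Mean log2 intensities were 8.74 ± 0.35 in KSR2-/- and 9.04 ± 0.31 in WT for those with a counterpart, and 8.41 ± 0.26 in KSR2-/- and 8.75 ± 0.23 in WT for the others (SD, n = 3 each). More than 1 probe set was present for 24 members, which had 51 further probe sets. Of the 23 further ones at or above the median of all gene means, 22 read lower in KSR2-/-. The 10 with a sign opposite to that of the gene's brightest probe set were all below that median. The spread within groups was somewhat wider than usual for the family, with a median SD of 0.36 in KSR2-/- and 0.33 in WT over members, against 0.31 in KSR2-/- and 0.32 in WT over genes at or above the median mean.

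The mitoribosomal proteins outside the members numbered 35 measured genes, 23 of the large subunit and 12 of the small. In KSR2-/- 20 of the 23 were lower (median −0.33) and 11 of the 12 (median −0.40). Together that is 88.6% of the 35, against 55.6% of all genes. At an unadjusted p under 0.05, 5 of the 35 were lower (14.3%). The share was 5.38% of all genes and 6.60% of genes at or above the median mean. Mrpl50 differed by −0.58 (SE 0.19), Mrpl38, of the central protuberance, by −0.48 (SE 0.20), Mrps21 by −0.58 (SE 0.22) and Mrps27 by −0.55 (SE 0.21). Their mean on the arrays was 8.24, 8.84 and 8.98 in knockouts 1 to 3, against 8.59, 9.26 and 9.16 in wild types 1 to 3, which is the order of arrays seen in the members. None of these genes passed limma over all genes, the lowest adjusted p being 0.314 among the 4 named.

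In lists of the wider machinery of mitochondrial gene expression most genes had a lower mean in KSR2-/-, with 0 genes past limma at an adjusted p under 0.05 in any of these lists. Of 24 genes of mitoribosome assembly and rRNA modification 21 were lower (median −0.29), among them the pseudouridine synthase gene Trub2 (−0.71, SE 0.27) and the rRNA methyltransferase gene Mettl15 (−0.68, SE 0.28). All 13 measured genes listed as translation factors were lower (median −0.21), with Mtfmt, which formylates the initiator tRNA, at −0.55 (SE 0.25) and the ribosome recycling factor Mrrf at −0.64 (SE 0.29). That list also holds Mss51 and the chaperone gene Trap1. Of 19 mitochondrial aminoacyl-tRNA synthetase genes, which charge tRNAs, 16 were lower (median −0.18), with Nars2 at −0.52 (SE 0.20) and Wars2 at −0.44 (SE 0.19). Of 20 genes of mitochondrial DNA maintenance, transcription and RNA processing 18 were lower (median −0.25). Hsd17b10, a subunit of mitochondrial RNase P that also degrades isoleucine, differed by −1.06 (SE 0.28, limma adjusted p = 0.248), and Polg2, of the DNA polymerase, by −0.69 (SE 0.25). At an unadjusted p under 0.05 the 4 lists gave 2, 0, 1 and 2 genes lower, in the order described, and 0 higher. These are 8.33%, 0%, 5.26% and 10% of the lists, against 5.38% of all genes.

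Nuclear-encoded proteins of the respiratory complexes and of ATP synthase assemble with the products of the mitoribosome, and the median difference of their genes was larger. Of 67 measured 66 were lower in KSR2-/- with a median of −0.48. At an unadjusted p under 0.05, 23 were lower (34.3%, against 5.38% of all genes). Without overlap there were 27 lower (40.3%, against 8.56%). Among genes at or above the median mean these shares were 6.60% and 7.21%. Cyc1 and Ndufa4 differed by −0.80 (SE 0.22) and −0.70 (SE 0.19). Their mean was 10.50, 10.93 and 11.14 in knockouts 1 to 3, against 11.12, 11.50 and 11.38 in wild types 1 to 3, so wild type 1 lay between knockouts 2 and 3 here instead of below both. Cytosolic ribosomal protein genes, which share a name but not a compartment, had 26 of 44 measured lower and a median of −0.027. Their mean was 11.23 ± 0.10 in KSR2-/- and 11.24 ± 0.11 in WT (SD, n = 3 each), and Rps25 (0.89, SE 0.26) and Rpl12 (0.36, SE 0.18) had the smallest p. Differences between these lists and the members were not tested.

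**Figure D4:**
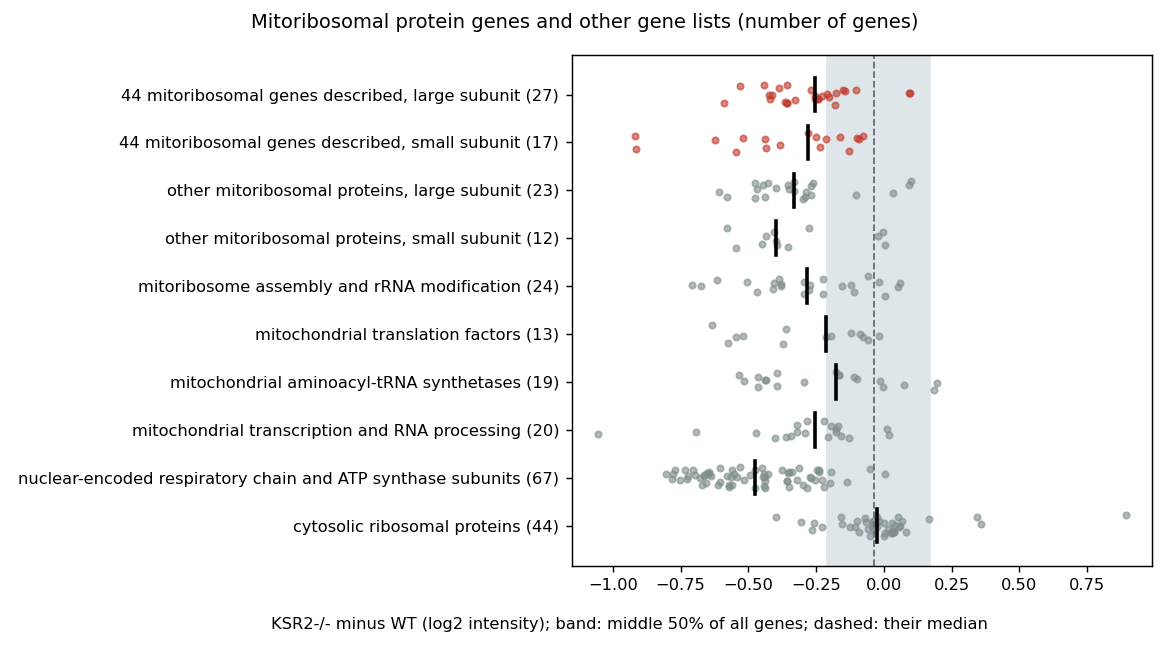
Difference between KSR2-/- and WT in log2 intensity (horizontal axis) for every gene of 10 lists, 1 point per gene, with the list's median as a black bar, the number of genes in parentheses, and the middle 50% of all 18193 genes as a grey band around their dashed median. The medians are −0.26 and −0.28 for the mitoribosomal genes described (red), −0.48 for respiratory chain and ATP synthase genes and −0.027 for cytosolic ribosomal proteins.

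Among 9 nuclear regulators of mitochondrial genes 3 were lower and 6 higher in KSR2-/- (median 0.24). Ppargc1a, a coactivator of mitochondrial biogenesis, read 3.63, 3.40 and 3.92 in knockouts 1 to 3, against 5.57, 5.61 and 4.68 in wild types 1 to 3. The groups did not overlap and the difference of −1.64 (SE 0.29) had a limma adjusted p of 0.193, at a level near the 20th percentile of gene means (3.46) in the knockouts. Its relative Pprc1 read higher by 0.71 (SE 0.23, limma adjusted p = 0.308). Gabpa, an ETS factor, read 8.84, 8.48 and 8.62 in the knockouts, against 8.69, 8.62 and 8.53 in the wild types, with overlap. Nrf1 read 5.91, 5.99 and 5.91 in the knockouts, against 5.63, 5.49 and 5.98 in the wild types, also with overlap.

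Cell-type marker lists were read on the same arrays. Macrophage markers averaged 9.99, 10.05 and 8.67 in knockouts 1 to 3, against 8.36 to 8.49 in the wild types, with 11 of 12 higher in KSR2-/- and Cd68 at 2.47 (SE 0.53) and Cd84 at 2.69 (SE 0.73) higher. Adipocyte markers averaged 11.31, 11.65 and 12.41 in knockouts 1 to 3, against 11.70, 12.20 and 12.21 in wild types 1 to 3, with 6 of 8 lower in KSR2-/-, Retn at −1.23 (SE 0.42) and Lep at 1.45 (SE 0.57). Adipoq read 12.70 to 13.40 in KSR2-/- and 13.46 to 13.58 in WT. Brown adipocyte markers averaged 5.15 to 6.13 in KSR2-/- and 6.20 to 6.85 in WT, 5 of 5 lower with a median of −0.29. Cidea at −3.07 (SE 0.70) and Cox8b at −1.73 (SE 0.41) had the largest differences of these, while Ucp1, the defining gene, was at −0.074 (SE 1.01) and Dio2 at −0.073 (SE 0.26). The part of these markers in the members' values was not tested. Without knockout 1 there were 32 of 44 members lower in KSR2-/-, with a median of −0.10, against 51.6% of all genes. Without wild type 2 there were 36 members lower, against 53.6% of all genes. Without knockout 2 there were 43, against 55.4%.

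The averages of the other marker lists overlapped between the genotypes, as did those of the adipocyte list. Lymphocyte markers averaged 6.29, 5.76 and 5.90 in knockouts 1 to 3, against 6.55, 5.25 and 5.28 in wild types 1 to 3 (7 of 8 higher in KSR2-/-), endothelial markers 6.91 to 7.48 in KSR2-/- and 6.96 to 7.50 in WT (4 of 6 higher), and stromal progenitor markers 9.85 to 10.45 in KSR2-/- and 10.01 to 10.68 in WT (5 of 6 lower). Muscle markers averaged 5.05 to 5.39 in KSR2-/- and 4.22 to 7.34 in WT (6 of 8 lower). Epithelial markers averaged 4.38 to 6.06 in KSR2-/- and 4.67 to 7.03 in WT (8 of 8 lower). Wild type 3 was highest in both lists. The genes with the smallest p were Cd79b (0.61) and Cd79a (0.35) for lymphocytes, and Tek (−0.58) and Emcn (−0.34) for endothelium. For stroma they were Pdgfra (−0.41) and Lum (0.33), and for muscle Actn3 (−0.71) and Ckm (−0.86). Epithelial ones were Csn2 (−0.67) and Epcam (−0.33). Of these genes, Pdgfra and Csn2 were lower in KSR2-/- without overlap. On the log2 scale, Gapdh control probe sets at the 3′ end exceeded those at the 5′ end by 0.47 to 1.46 in KSR2-/-. In wild types 1 to 3 the excess was 0.067, 0.69 and 4.18. A larger excess is a sign of lower RNA integrity, and wild type 3 had the largest. The part of these markers and of RNA integrity in the result was not tested, apart from the Gapdh difference as a covariate. The Ksr2 probe set read 4.47, 4.28 and 4.26 in knockouts 1 to 3, against 4.74, 4.04 and 4.47 in wild types 1 to 3. The difference was −0.081 (SE 0.21), and no source says whether its probes lie in the deleted part, so it does not check the labels. The median probe set read 22.4 to 24.2 on the linear scale.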

How the data were processed

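Total RNA of 6 mice, 3 KSR2-/- and 3 WT, was hybridized to 1 Affymetrix array each. The table holds intensity values that the authors made with RMA (per the submitters' processing notes, version not given) and deposited on a linear scale, as the values show. It holds no columns of other samples. RMA fits all arrays together and forces their probes to 1 distribution, so a shift common to all genes cannot be measured. Medians over genes still differed between arrays. They were 5.87, 6.03 and 6.03 in knockouts 1 to 3, against 5.77, 5.96 and 6.07 in wild types 1 to 3. Log2 was taken with no pseudocount. Of 45101 probe sets, 64 were controls, 34945 had 1 gene symbol, 932 several and 9160 none listed in the platform annotation; 34741 of the single-gene probe sets matched a RefSeq symbol (GRCm38.p6). For each of 18193 genes, the brightest probe set that names it alone, by the mean of all arrays, was used.

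KSR2-/- was compared with WT in limma 3.58.1 (R 4.3.3; lmFit, eBayes, prior degrees of freedom 3.06), two-sided, Benjamini-Hochberg over all genes, threshold 0.05. Standard errors are the moderated ones, and the number of arrays limits precision (median SE 0.22). Replicates were numbered in accession order and do not pair arrays. Data were simulated for 18193 genes with the moderated variance of each gene and independent noise. There, 26% of genes changed 2-fold and 92% of genes changed 4-fold were recovered, with 5 false calls. All members differed by less than 2-fold and moved together over arrays, which these rates do not cover. Values by array are given for 15 members. The rule took those at an unadjusted p under 0.05, with a KSR2-/- mean at or above WT, or without overlap. It also took those with the 4 largest or 2 smallest differences of a subunit. Of each other list the 2 genes with the smallest p are given by their difference. Il13ra2, Gabpa, Nrf1, Adipoq, Ucp1, Dio2, the members with the smallest p between the series and members named for their role, were added after their values were seen. Members and lists were chosen with earlier results of these data known. Promoter windows are RefSeq's, the first listed where a gene had several. Alternatives were quantile normalization repeated, arrays centred on their median, log2(intensity + 16), dim genes left out, the mean of a gene's probe sets, every probe set, eBayes with trend, the animal-number series as a block or restricted to the higher-numbered arrays, the Gapdh difference as a covariate, subunits by symbol, and each array left out.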

Additional observations from a re-analysis of the deposited data

How the results depend on the processing

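Over the alternatives with all members, 0 of 44 members passed limma in each, and the subunit differences kept their sign. The large-subunit difference (−0.28) ran from −0.42 without wild type 1 to −0.11 without knockout 1, and the small-subunit difference (−0.37) from −0.55 to −0.16 likewise. Members lower in KSR2-/- numbered 32 without knockout 1, 36 without wild type 2 and 38 to 43 in the other left-out fits. With the Gapdh covariate they numbered 39. Of all genes, 50.5% to 60.1% were lower in the left-out fits and 52.6% with that covariate. Members lower at an unadjusted p under 0.05 (4) were 12 with quantile normalization repeated, 9 with arrays centred on their median, and 2 with the Gapdh covariate, with dim genes left out, with eBayes trend or with the mean of all probe sets. Leaving out 1 array gave 0 to 6, with 0 without knockout 1 or wild type 2 and 2 without wild type 3. Quantile normalization moved the share of all genes lower at that level to 8.52%, centring to 7.02%.

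Genes called in all (1) were 6 with the Gapdh covariate, 0 with the series block, 16 with centring, 12 without dim genes, 10 with eBayes trend, 487 in the higher-numbered series alone, 0 with log2(intensity + 16), 2 with quantile normalization, 0 with every probe set, and 0 to 816 without 1 array (816 without knockout 3, 9 without wild type 3). Mrps12 turned to 0.066 and Mrps28 to 0.036 with the Gapdh covariate, and Mrpl4 to −0.20 in the higher-numbered series alone. With 1 array left out, signs turned for Mrps12 (−0.39 to 0.19), Mrps28 (−0.34 to 0.19), Mrpl19 (−0.078 to 0.29) and Mrpl4 (−0.21 to 0.30). These were 11 of 225 values of the 15 genes over 15 alternatives; the cause was not tested. No paired analysis was possible because the labels hold no shared replicate numbers.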
